A study of Mus musculus with 4 samples.

Results

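Fgf receptor transcripts were followed entry by entry in sorted palatal mesenchyme of 4 mouse embryos at embryonic day 13.5 (E13.5). All rows of the deposited tables whose gene symbol was Fgfr1, Fgfr2, Fgfr3, Fgfr4 or Fgfrl1 were taken, which gave 5 of 22096 genes and 13 of 28107 RefSeq transcript entries. An entry is 1 annotated splice form, named here by its RefSeq identifier. Fgfr1 had 3 entries, Fgfr2 had 2, Fgfr3 had 5, Fgfr4 had 1 and Fgfrl1 had 2. All 13 entries were usable, meaning at least 200 bases long with a completed estimate in every embryo. Each was read as FPKM, fragments per kilobase of transcript scaled to the mapped fragments of the library, and as the mean read coverage beside it.

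The embryos came from 1 type of cross, and their own strain background is not stated. The study compared palatal mesenchyme that lacked the transcription factor Foxf2 with that of control littermates. Every embryo carried the Osr2RFP/+ knock-in, which places a red fluorescent reporter at the Osr2 locus, so sorting selected RFP-positive cells of the palatal shelves. Of the controls, 1 was Foxf2+/+ and 1 was Foxf2+/-, and the remaining 2 embryos were Foxf2-/-. Neither control genotype had a replicate, and the smallest two-sided p that an exact permutation of 2 embryos against 2 allows is 0.333. The cells sequenced are those in which Osr2 is active, so receptor transcripts of the palatal epithelium were not sampled by design.

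Fgf receptors are membrane tyrosine kinases whose extracellular part is built of immunoglobulin-like (Ig) loops, with a stretch of acidic residues, the acid box, between the first and the second loop. In Fgfr1, Fgfr2 and Fgfr3 the last part of the third loop is encoded by either of a pair of mutually exclusive exons, called IIIb and IIIc, and this choice sets which Fgf ligands bind. In developing organs the IIIb form is typical of epithelium and the IIIc form of mesenchyme, and ligands made in one layer often act on the other. Exclusion of the first loop or of the acid box gives shorter forms of the same receptor. Fgfrl1 binds Fgf ligands but has no kinase domain.

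The exons that set the entries apart were found by matching each entry to a transcript of the mouse mm9 annotation with the same ends and length. This gave an exon model for 12 of the 13 entries, 11 of them by a direct match. The model of NM_001163217 was built from annotated exons of Fgfr3, of which a single combination gave its length. Entry NM_001163215 of Fgfr3, 4245 bases long, could not be modelled and its exons are not described.

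**Figure D1:**
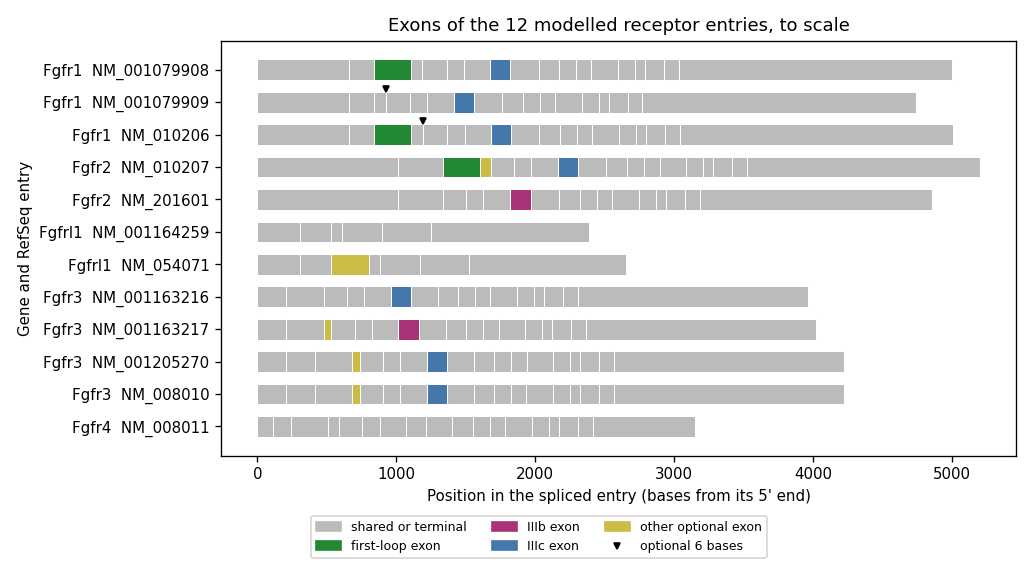
Exons of the 12 modelled receptor entries drawn to scale, with the position in the spliced entry in bases from its 5′ end on the x axis and 1 entry per line. Colours mark the first-loop exons, the IIIb and IIIc exons and other optional exons, and triangles mark the optional 6 bases of Fgfr1. Fgfr1 and Fgfr2 entries are 4741 to 5198 bases long and most of each bar is grey, shared sequence.

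The third-loop exons of Fgfr3 are shown because they carry the IIIb or IIIc identity. In each line, capitals mark the bases that differ from the other exon in a global alignment. The exons lie on the plus strand of mm9, the IIIb exon at chr5:34073930-34074080 and the IIIc exon at chr5:34074766-34074910. Both are coding exons and are written 5′ to 3′ along the transcript.
Fgfr3 IIIb: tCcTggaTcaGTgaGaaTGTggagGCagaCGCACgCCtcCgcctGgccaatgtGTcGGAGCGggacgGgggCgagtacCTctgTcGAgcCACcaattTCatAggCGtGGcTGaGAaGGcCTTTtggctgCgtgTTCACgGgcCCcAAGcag
Fgfr3 IIIc: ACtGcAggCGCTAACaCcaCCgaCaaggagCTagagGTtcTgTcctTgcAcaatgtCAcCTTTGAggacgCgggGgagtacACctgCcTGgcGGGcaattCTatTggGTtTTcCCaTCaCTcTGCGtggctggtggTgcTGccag

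The IIIb and IIIc exons of Fgfr3 had 51.9% identical bases over the aligned columns. All 3 Fgfr1 entries carried the IIIc exon, so the files hold no IIIb entry of Fgfr1. For Fgfr2, NM_010207 carried IIIc and NM_201601 carried IIIb. For Fgfr3, NM_001163217 carried IIIb, and NM_001163216, NM_001205270 and NM_008010 carried IIIc.

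The Fgfr1 and Fgfrl1 entries differed from one another in coding exons of the extracellular part. Shown are the first-loop exon of Fgfr1 (mm9 chr8:26665980-26666246, plus strand), the acid-box exon of Fgfr1 (chr8:26668203-26668292, plus strand) and the optional exon of Fgfrl1 (chr5:109132305-109132577, plus strand), because the Fgfr1 and Fgfrl1 entries are told apart by these bases alone. All are coding, and capitals in the acid-box exon mark the 6 bases at its 3′ end that NM_001079908 lacks.
Fgfr1 first loop: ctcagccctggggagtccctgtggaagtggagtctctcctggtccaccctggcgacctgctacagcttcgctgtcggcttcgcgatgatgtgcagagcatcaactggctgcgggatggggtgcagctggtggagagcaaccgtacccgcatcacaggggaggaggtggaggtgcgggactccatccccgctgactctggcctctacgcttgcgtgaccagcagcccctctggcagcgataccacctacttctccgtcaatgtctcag
Fgfr1 acid box: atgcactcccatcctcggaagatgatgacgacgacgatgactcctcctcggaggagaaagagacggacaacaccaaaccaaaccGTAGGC
Fgfrl1 optional exon: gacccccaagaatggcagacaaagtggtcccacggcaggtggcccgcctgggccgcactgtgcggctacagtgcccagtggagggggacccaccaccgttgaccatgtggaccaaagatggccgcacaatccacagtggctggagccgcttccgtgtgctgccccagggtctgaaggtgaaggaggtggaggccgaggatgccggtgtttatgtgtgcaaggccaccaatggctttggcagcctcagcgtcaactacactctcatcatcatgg

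Among the Fgfr1 entries, NM_010206 (5008 bases) held all of these bases, NM_001079908 (5002 bases) lacked the 6 bases, and NM_001079909 (4741 bases) lacked the first-loop exon of 267 bases. No Fgfr1 entry had a base of its own: all 3 shared 4735 bases, and every base of the shorter entries was also in NM_010206. The 2 entries of Fgfr2 shared 4708 bases. NM_010207 had 490 bases of its own, made of a first-loop exon of 267 bases, an acid-box exon of 78 bases and the IIIc exon, and NM_201601 had only the IIIb exon of 148 bases. In Fgfr3, NM_001163217 also held an acid-box exon of 54 bases that NM_001163216 lacked, and the 3 remaining entries began at a more upstream first exon. Of these, NM_001205270 differed from NM_008010 by 3 bases at the start of a later exon. NM_054071 of Fgfrl1 had the optional exon of 273 bases, and NM_001164259 lacked it and had no base of its own.

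Summed over its entries, Fgfr1 was the most abundant receptor transcript in the palatal mesenchyme, followed by Fgfr2, Fgfrl1, Fgfr3 and Fgfr4. Values in the 4 embryos are given in the order Foxf2+/+, Foxf2+/-, Foxf2-/- replicate 1, Foxf2-/- replicate 2. Fgfr1 had 54.2, 50.3, 55.7 and 63.2 FPKM, and Fgfr2 had 11.02, 11.4, 9.14 and 10.5 FPKM. Fgfrl1 had 7.40, 7.23, 7.51 and 8.74 FPKM. The order was the same in all 4 embryos and no neighbours in it overlapped over the embryos, although the lowest Fgfr2 value, 9.14 FPKM, lay close to the highest Fgfrl1 value, 8.74 FPKM. Fgfr1 was 4.41 to 6.09 times as abundant as Fgfr2 within an embryo, and Fgfr2 was 1.20 to 1.57 times as abundant as Fgfrl1. Fgfr3 had 0.780, 1.03, 1.0 and 0.832 FPKM, and Fgfr4 had 0.217, 0.145, 0.0820 and 0.116 FPKM. Of the summed FPKM of the 5 genes, Fgfr1 made up 71.7% to 75.9%, Fgfr2 12.4% to 16.3%, Fgfrl1 10.1% to 10.5%, Fgfr3 0.998% to 1.47% and Fgfr4 0.112% to 0.295%.

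**Figure D2:**
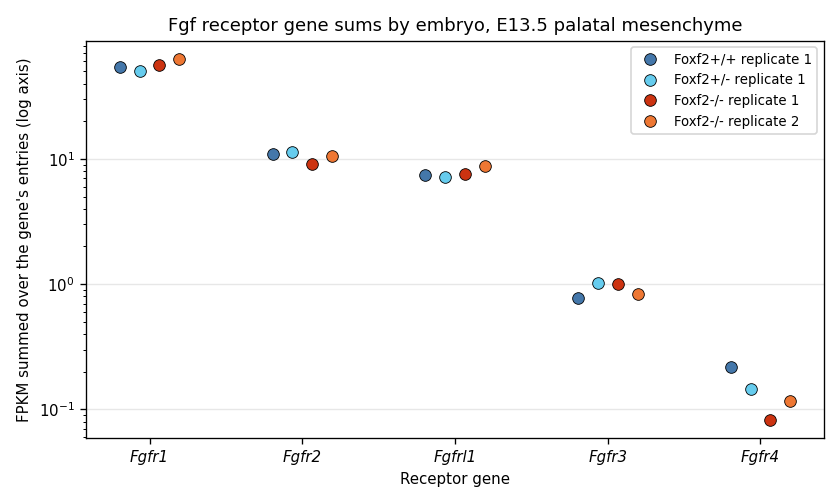
FPKM summed over the entries of each receptor gene, on a log axis, with 1 point per embryo coloured by genotype. Fgfr1 lies between 50.3 and 63.2 FPKM, Fgfr2 and Fgfrl1 between 7.23 and 11.4, Fgfr3 between 0.780 and 1.03 and Fgfr4 between 0.0820 and 0.217.

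Against all 22096 genes, Fgfr1 stood above 96.9% to 97.6% of genes in each embryo and Fgfr2 above 79.6% to 82.1%. Fgfr3 and Fgfr4 stood above 45.7% to 48.3% and 32.4% to 37.7%. The deposited mean read coverage shows how much sequence lay behind these levels. It was 73.6 to 98.0 for Fgfr1, 12.7 to 18.3 for Fgfr2 and 10.1 to 13.6 for Fgfrl1. For Fgfr3 it was 1.06 to 1.66, so that any one base was covered about once, and for Fgfr4 it was 0.114 to 0.295.

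The comparison of Foxf2-/- with control embryos asked whether loss of Foxf2 altered the level of any receptor. Values were tested with limma as log2(FPKM + 0.1), a scale that understates the change of low genes. Of 7377 genes tested, those with at least 5 FPKM in at least 1 embryo, limma called 7, or 0.0949%, at an adjusted p under 0.05 and a change over 1.5-fold. Of the receptors, 3 were in this fit and 0 were called. Of all genes tested, 1086 (14.7%) had an unadjusted p under 0.05, and 0 of the 3 receptors did. In 47.4% of the genes tested the 2 groups did not overlap, so that absence of overlap is common here. Of these 3498 genes, Foxf2-/- embryos were lower in 2859 and higher in 639, so it was less common upward. For Fgfr1 the log2 difference, Foxf2-/- minus control, was 0.18 (SE 0.10, 95% interval -0.05 to 0.42, adjusted p = 0.438 by limma). Both Foxf2-/- embryos lay above both controls. Their mean was 0.13 log2 units above the Foxf2+/+ and 0.24 above the Foxf2+/- embryo, and they differed from each other by 0.18. For Fgfr2 the log2 difference was -0.19 (SE 0.10, 95% interval -0.42 to 0.04, adjusted p = 0.426 by limma), with both Foxf2-/- embryos below both controls. For Fgfrl1 it was 0.15 (SE 0.11, 95% interval -0.11 to 0.40, adjusted p = 0.587 by limma). As in Fgfr1 and 639 of the 7377 genes, both Foxf2-/- embryos lay above both controls. The median log2 difference of all genes tested was -0.08. None of the 3 intervals reached a 1.5-fold change in either direction, and changes smaller than that were not resolved. In these bulk samples, fewer cells that express a receptor and less receptor RNA per cell cannot be told apart.

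Fgfr3 and Fgfr4 stayed below the filter. Fgfr3 averaged 0.904 ± 0.175 FPKM (SD, n = 2) in controls and 0.917 ± 0.12 FPKM (SD, n = 2) in Foxf2-/- embryos, with overlapping groups. Fgfr4 averaged 0.181 ± 0.0514 FPKM in controls and 0.0989 ± 0.0240 FPKM in Foxf2-/- embryos, and the groups did not overlap. Its coverage was only 0.114 to 0.295. Of the 7377 genes above the filter, 2859 likewise had both Foxf2-/- embryos below both controls. With no filter on low values limma gave Fgfr4 a log2 difference of -0.49 with an adjusted p of 0.571. That fit called 0 of 17145 genes, and so not Foxf2 either, which leaves the lack of a call for Fgfr4 uninformative. By a fold criterion that takes the study's 1.5-fold cutoff without its significance test, in which the mean log2 value of Foxf2-/- embryos lies more than 1.5-fold from each control in the same direction, 47 of the 7377 genes (0.637%) passed, and 0 of the 3 receptors did.

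Between the Foxf2-/- embryos, single entries of Fgfr1, Fgfr2 and Fgfrl1 varied more than the sums of these genes did. Between the controls, some entries varied less than their sum. NM_001079908, which lacks the 6 bases of the acid-box exon, had 28.2, 27.7, 31.5 and 43.5 FPKM. NM_001079909, which lacks the first loop, had 14.4, 11.2, 7.38 and 18.3 FPKM. NM_010206, the longest form, had 11.6, 11.4, 16.9 and 1.31 FPKM. The most abundant entry was therefore NM_001079908 in every embryo. Its groups did not overlap, which held for 43.3% of the 13746 entries tested across all genes. Foxf2-/- embryos were the higher group, as in 1558 of the 13746, against 4392 in which they were lower. In the other Fgfr1 entries, 1 Foxf2-/- embryo lay above both controls and the other below both, in opposite order. Replicate 1 had the highest NM_010206 and the lowest NM_001079909, and replicate 2 the reverse. Between the 2 controls the log2 difference was 0.03 for NM_001079908, 0.03 for NM_010206 and 0.36 for NM_001079909, against 0.11 for the Fgfr1 sum.

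As shares of the Fgfr1 sum, NM_001079908 held 52.1%, 55.1%, 56.5% and 68.9%, without overlap between the groups, as in 35.6% of the 6525 entries whose ratio to the rest of the gene was tested. The 2 entries with the first-loop exon together held 73.5%, 77.7%, 86.8% and 71.0%, so the groups overlapped. Transcripts with a first loop were thus the larger part of Fgfr1 in all 4 embryos. Added together, these 2 entries had 39.8, 39.0, 48.3 and 44.8 FPKM. Their sum differed by 0.11 log2 units between the Foxf2-/- embryos, while NM_010206 on its own differed by 3.58.

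**Figure D3:**
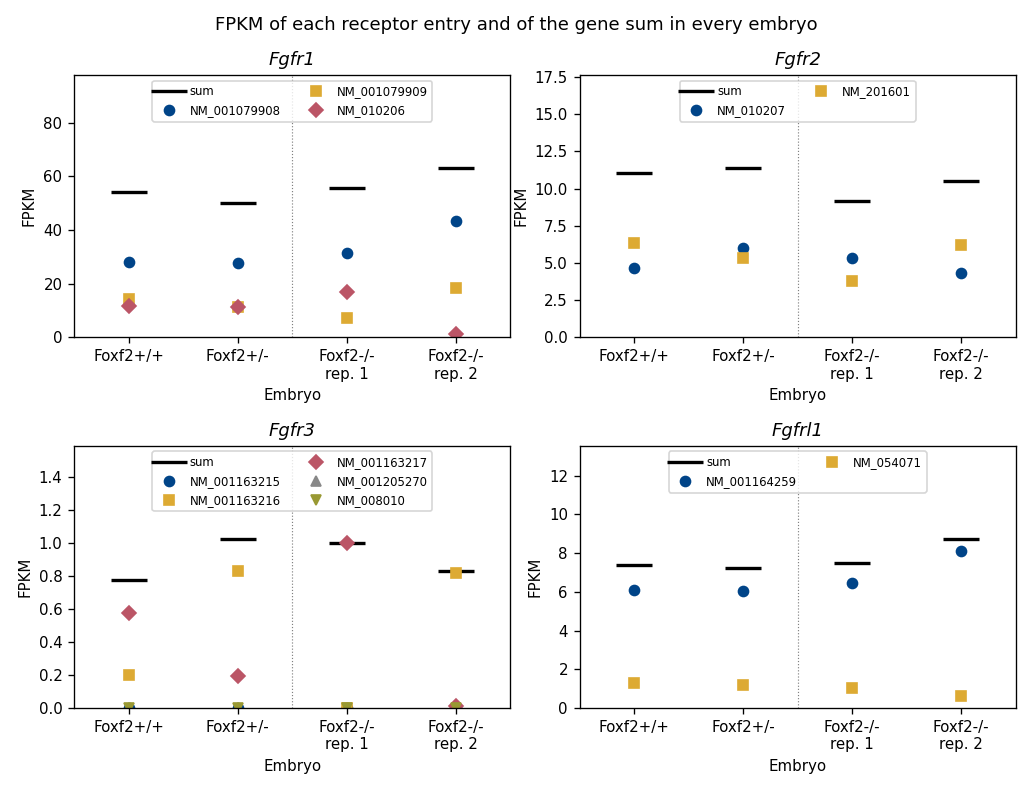
FPKM of each entry (symbols) and of the gene sum (black bars) in every embryo for Fgfr1, Fgfr2, Fgfr3 and Fgfrl1, with a dotted line between controls and Foxf2-/- embryos. The sums change little, whereas NM_010206 of Fgfr1 goes from 16.9 to 1.31 FPKM between the Foxf2-/- embryos and the leading entry of Fgfr3 switches from embryo to embryo.

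Fgfr2 was divided almost evenly between its IIIc and IIIb entries. NM_010207, the IIIc entry, had 4.70, 6.02, 5.35 and 4.30 FPKM. NM_201601, the IIIb entry, had 6.32, 5.37, 3.79 and 6.20 FPKM. The IIIb entry held 57.4%, 47.2%, 41.5% and 59.1% of Fgfr2. Each group therefore had 1 embryo in which IIIb was the larger entry and 1 in which IIIc was, and the groups overlapped. The log2 difference in the ratio of IIIc to IIIb entry was 0.11 (SE 0.56, 95% interval -1.58 to 1.81, adjusted p = 0.989 by limma), so a shift of either sign was not resolved.

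The 2 Fgfr2 entries differ at the third loop, the first loop and the acid box at once, so their shares cannot be read as the use of the third-loop exons alone. Of 11 annotated Fgfr2 transcripts that reach over both regions, 5 joined IIIb to the absence of the first-loop exon and 1 joined IIIc to its presence, as the entries do. Another 2 joined IIIb to the presence of the first-loop exon, 1 joined IIIc to its absence, and 2 had another arrangement at the third loop. The files hold no entry for these last combinations, and a read from them can count only where its bases lie in an entry that is present. Such bases include the IIIb, IIIc and first-loop exons, by which the 2 entries are told apart.

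Because IIIb is the form known from epithelium, the epithelial markers were read in the same libraries. All 14 markers of the list were in the files and 0 reached 5 FPKM. Their summed level was 8.63, 10.3, 10.8 and 11.9 FPKM, and the highest marker was Krt18, a simple-epithelial keratin, at 2.22 to 3.11 FPKM. The sum was higher in both Foxf2-/- embryos than in both controls, though the Foxf2+/- embryo lay close to Foxf2-/- replicate 1. Of the 7377 single genes tested, 639 had such an order. Esrp1, a splicing regulator that promotes the IIIb exon in epithelia, had 0.0797, 0.292, 0.495 and 0.370 FPKM. Esrp2, its paralogue, had 0.152, 0.340, 0.365 and 0.483 FPKM. Esrp1, Esrp2 and the summed list were lowest in the Foxf2+/+ embryo. The part of epithelial cells in the IIIb level was not tested.

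In Fgfr3 the leading entry changed from embryo to embryo. NM_001163217, the IIIb entry with the acid-box exon, had 0.579, 0.194, 1.0 and 0.0131 FPKM. NM_001163216, the IIIc entry without that exon, had 0.201, 0.833, 1.46e-04 and 0.819 FPKM. The share of the IIIb entry was 74.3%, 18.9%, 99.99% and 1.58%. Within either group, the IIIb entry thus held most of the Fgfr3 sum in 1 embryo and the IIIc entry in the other. The Fgfr3 sum itself stayed between 0.780 and 1.03 FPKM. As these entries also differ by the acid-box exon, their shares cannot be read as the use of the third-loop exons alone. The 3 entries that begin at the upstream first exon, NM_001163215, NM_001205270 and NM_008010, together held at most 0.0211% of Fgfr3 in any embryo. Coverage over the gene was 1.06 to 1.66, and the exons that separate the third-loop forms are 151 (IIIb) and 145 (IIIc) bases long. The part of this low depth in the split was not tested.

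In Fgfrl1, the receptor without a kinase, the short entry prevailed. NM_001164259, which lacks the optional exon of 273 bases, had 6.08, 6.05, 6.46 and 8.08 FPKM. NM_054071, which holds it, had 1.32, 1.18, 1.05 and 0.653 FPKM. The groups did not overlap in either entry, against 43.3% of all entries tested. Foxf2-/- embryos were higher in the short entry, as in 1558 of 13746 entries, and lower in the long entry, as in 4392. Neither entry was called (adjusted p = 0.613 for the short and 0.672 for the long entry by limma). The share of the short entry was 82.1%, 83.7%, 86.0% and 92.5%. Its log2 ratio to the long entry differed by 0.78 (SE 0.48, 95% interval -0.68 to 2.24, adjusted p = 0.869 by limma). Without Foxf2-/- replicate 2 it was 0.31, and without Foxf2-/- replicate 1 it was 1.25.

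Fgfr4 had the single entry NM_008011, 3146 bases long, and so no shares. Its 4 values were those of the gene.

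Across all entries, limma was fitted to 13746 entries with at least 1 FPKM in at least 1 embryo, and called 0 (0%), with 1308 (9.52%) at an unadjusted p under 0.05. Of the receptors' entries 8 were in this fit, 0 were called and 0 had an unadjusted p under 0.05. Since 0 entries were called, this fit did not call the targeted gene Foxf2 either. Lack of a call for a receptor entry therefore does not show that the entry was unchanged. The fold criterion was passed by 903 entries, or 6.57%, against 0.637% of genes. It was passed by 1 of the 8 receptor entries, NM_010206 of Fgfr1, whose mean log2 value in Foxf2-/- embryos differed by -1.25 from the Foxf2+/+ and by -1.23 from the Foxf2+/- embryo. That entry had a log2 difference of -1.24 (SE 1.19, 95% interval -4.38 to 1.89, adjusted p = 0.744 by limma). Its value rested on 1 embryo: without Foxf2-/- replicate 2 the log2 difference was 0.55, in the opposite direction. For NM_001079908 the log2 difference was 0.40 (SE 0.17, 95% interval -0.04 to 0.85, adjusted p = 0.534 by limma), and for NM_054071 it was -0.53 (SE 0.38, adjusted p = 0.672 by limma). In the fit of each entry's ratio to the rest of its gene, 6525 entries were tested and 0 (0%) were called, with 370 (5.67%) at an unadjusted p under 0.05. Of the receptors' entries 12 were in it, 0 were called and 0 had an unadjusted p under 0.05. For the 3 upstream Fgfr3 entries among them, the ratio was set by the pseudocount and the Fgfr3 sum, so they were not informative.

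**Figure D4:**
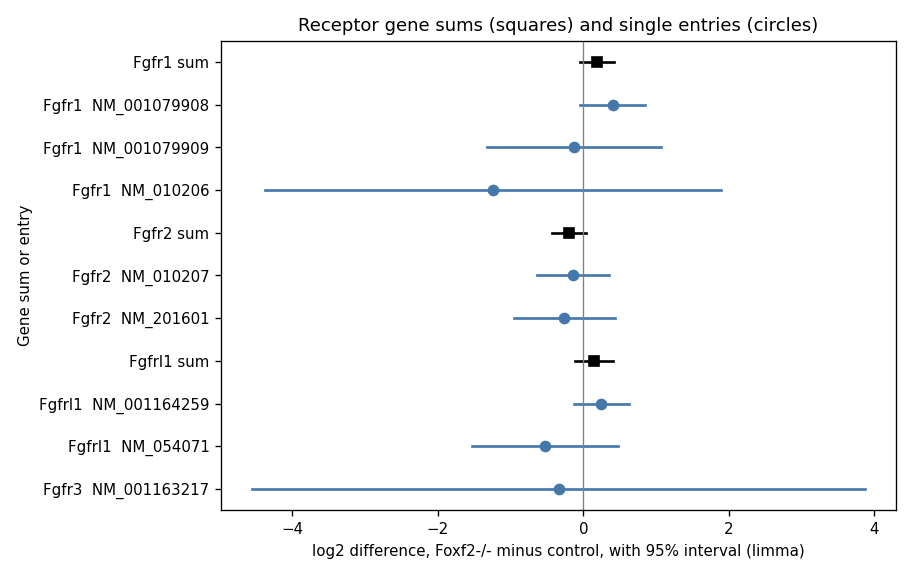
Log2 difference, Foxf2-/- minus control, with its 95% limma interval, for the 3 receptor gene sums (squares) and the 8 receptor entries tested (circles). Every interval includes 0. The intervals of the sums lie within -0.42 and 0.42, and those of NM_010206 and NM_001163217 reach beyond -4.

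The spread of the entries was set beside that of all entries of genes with 2 or more entries, 4703 in number. Their median difference between the Foxf2-/- embryos was 0.31 log2 units, against 0.12 for the 7377 gene sums, and 20.7% of them differed by more than 1 unit. NM_010206, at 3.58 units, was matched or exceeded by 6.25% of these entries. NM_001163217 of Fgfr3, at 3.28, was matched or exceeded by 7.36%, and NM_001079909 of Fgfr1, at 1.30, by 16.5%. The Fgfr2 entries lay at 0.31 and 0.69 units, and those of Fgfrl1 at 0.32 and 0.62. Of the 903 entries past the fold criterion, 706 (78.2%) had groups that did not overlap, and NM_010206 was not among them. Of the 47 genes past it, 44 (93.6%) had groups that did not overlap.

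**Figure D5:**
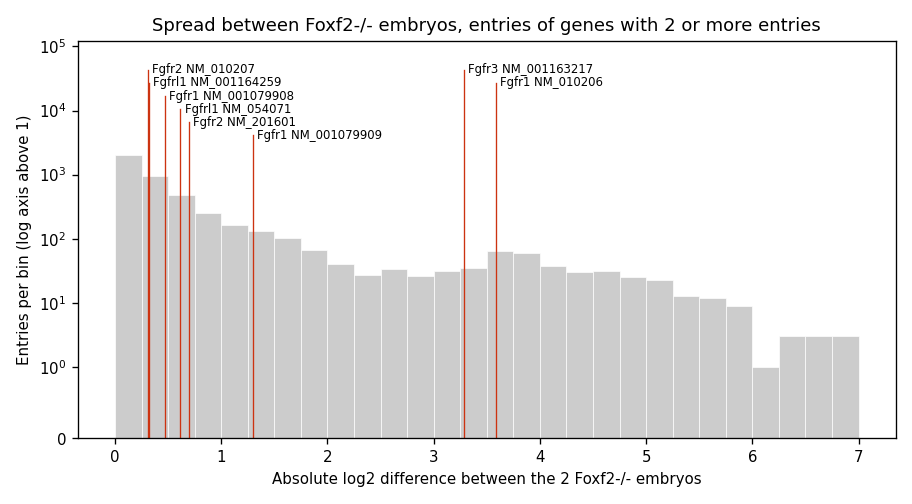
Number of entries (y, log axis above 1) by the absolute log2 difference between the 2 Foxf2-/- embryos (x), for 4703 entries of genes with 2 or more entries. Red lines mark the 8 receptor entries tested. NM_010206 and NM_001163217 lie in the tail beyond 3 units, NM_001079909 lies at 1.30, and the others lie below 0.7.

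The remaining genes of the pathway were read from lists. Of 18 ligands, 3 reached the filter and 6 were listed at 0 in all 4 embryos. All 3 that were tested had an unadjusted p under 0.05 by limma, against 14.7% of all genes. Fgf18, a ligand known to act on IIIc receptors, had 15.4, 14.6, 29.0 and 30.4 FPKM and was the 1 ligand called (log2 difference 0.98, adjusted p = 0.00594 by limma). Fgf2, another ligand, had 5.86, 4.36, 5.88 and 8.17 FPKM (adjusted p = 0.331 by limma). Fgf10, which acts on Fgfr2 with the IIIb exon, had 6.55, 5.15, 4.73 and 3.63 FPKM (log2 difference -0.48, adjusted p = 0.303 by limma). Both controls lay above both Foxf2-/- embryos, as in 2859 of the 7377 genes tested. Fgf7, with the same receptor preference, had 1.65, 0.811, 1.02 and 1.13 FPKM. On the FPKM scale, Fgf18 was the highest ligand and Fgfr1 the highest receptor in every embryo.

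Among 20 co-receptors and binding proteins, 19 were found in the files, 15 were tested and limma called 0, with 2 at an unadjusted p under 0.05, against 14.7% of all genes (Anos1 was not found). The highest were the glypicans Gpc3, at 336 to 396 FPKM, and Gpc6, at 95.7 to 114 FPKM, followed by Flrt2 and Glg1. Of 25 adaptors and kinases of the MAPK relay, 23 were tested and 0 were called, with 1 at an unadjusted p under 0.05. Gab1, Shc1, Mapk3 and Crk led this list, each at 19.9 to 26.5 FPKM. Of 12 feedback regulators and targets, 8 were tested and 0 were called, with 1 at an unadjusted p under 0.05. That gene was Dusp6, a phosphatase of Erk that is itself induced by Fgf signalling, at 28.0, 30.2, 39.9 and 40.2 FPKM (adjusted p = 0.105 by limma). Spred2, Spry4 and Etv5, the next in level, had log2 differences of 0.10, -0.11 and 0.01. Of 16 receptor splicing regulators, 14 were tested and 0 were called, with 3 at an unadjusted p under 0.05, again against 14.7% of all genes. Hnrnph1, Ptbp1, Hnrnpf and Hnrnpm led it, at 69.6 to 202 FPKM. The medians of the log2 differences in these lists were 0.45 for the 3 ligands, -0.09 for the co-receptors, -0.06 for the adaptors, 0.07 for the feedback genes and -0.07 for the splicing regulators, against -0.08 for all genes.

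By the profile over the 4 embryos, centred on each gene's mean log2 value, the genes nearest to Fgfr1 among 7376 others were Aebp2, Fndc3b and Fam98a. They differed from it by a root-mean-square of 0.0068 to 0.013 log2 units, against a median of 0.16 over all genes. Nearest to Fgfr2 were Tspyl2, Arl6ip1 and Ppil1, at 0.0097 to 0.010 units. Nearest to Fgfrl1 were Kdelr2, Cdr2 and Tmem39b, at 0.0060 to 0.0082 units. With 4 embryos as points this is a description only.

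The targeted gene followed the labels: Foxf2 had 85.4, 45.1, 1.41 and 2.28 FPKM. Read numbers could not be recovered from the values, and the libraries differed in relative depth by at most 1.19 times. Of the 12 mesenchyme markers all passed the filter, led by Col1a2 at 310.3 to 369.5 FPKM. Endothelial markers summed to 0.480 to 1.87 FPKM, with Emcn the highest, muscle markers to 0.362 to 0.860 with Actc1 the highest and Myog at 0 in all, and neural markers to 3.60 to 5.93 with Tubb3 the highest. White blood cell markers summed to 9.26 to 15.7 FPKM with Cd68 the highest, and cartilage and bone markers to 92.1 to 103 with Col2a1 the highest. Red blood cell transcripts, led by Hbb-y, summed to 297, 1819, 1593 and 4352 FPKM. The embryo with the most, Foxf2-/- replicate 2, was also that with the lowest NM_010206 and the highest Fgfr1 sum, and the part of red blood cell RNA in these values was not tested.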

How the data were processed

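RNA of sorted RFP-positive palatal cells was sequenced from 4 embryos (1 Foxf2+/+, 1 Foxf2+/-, 2 Foxf2-/-). Single-end reads were mapped by the authors against mm9, using Tophat and Bowtie (version 0.12.7 per the submitters' processing notes), and 1 table per embryo was deposited, in the form Cufflinks writes, with the FPKM of each RefSeq transcript and its coverage. The FPKM values are scaled by the authors for length and library size, and coverage, as deposited, is an estimate of mean read depth without scaling for library size. Estimating entries that share most of their bases divides shared reads between them by a model, so an entry's FPKM is less certain than its gene's sum. The program's version and options and the read length are not given in the sources used here, and the depth in reads is unknown.

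Entries of at least 200 bases with a completed estimate in all embryos were kept, and FPKM were summed per gene symbol. log2(FPKM + 0.1) was fitted with limma 3.58.1 in R 4.3.3, with a variance trend, for Foxf2-/- (n = 2) minus control (n = 2). All adjusted p-values are from limma with the Benjamini-Hochberg method over all features tested. Genes needed 5 FPKM and entries 1 FPKM in at least 1 embryo. In the fit of shares, the log2 ratio of an entry to the other entries of its gene was used, for genes of at least 1 FPKM. Calls needed an adjusted p under 0.05 and, except for shares, a change over 1.5-fold. The study's methods give the samples as separate embryos.

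Exon models and sequences came from the NCBIM37 (mm9) genome and the GENCODE annotation of that build, and some of the exon sequences are not reported here. Python 3.11.15, pandas 2.3.3 and numpy 2.4.6 were used for the remaining steps. The scripts were tested on simulated data. The members, gene lists and the genes named were chosen with earlier results of these data known. Named were all receptors and entries, Foxf2, up to 4 genes of the highest level in each pathway list with every gene called, Fgf18, Fgf7, Fgf10, Esrp1 and Esrp2, the highest gene of each marker list, and the 3 nearest profiles. Dusp6 is among the 4 highest of its list. Alternatives varied the pseudocount, filters, entry length, variance trend, scaling, summing, design and embryos included.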

Additional observations from a re-analysis of the deposited data

How the results depend on the processing

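No receptor gene or entry was called under any of the 259 combinations of receptor result and alternative setting, and 27 of them changed direction. With every embryo kept, 3 did so: NM_001163217 of Fgfr3 had a log2 difference of 0.0521 with a pseudocount of 1, and with null alleles as a linear term the ratios to the other entries were 0.26 for NM_001163216 and -0.26 for NM_001163217. Leaving out 1 embryo gave the other 24, and log2 differences then ranged from -3.03 to 0.55 for NM_010206, -0.78 to 0.53 for NM_001079909, -0.32 to 0.0302 for NM_010207 and -0.61 to 0.0876 for NM_201601. For NM_001163217 the range was -0.94 to 1.30, without a value for the omission of Foxf2-/- replicate 1, where it stayed below 1 FPKM. Ratios to the other entries ranged from -3.70 to 2.78 for NM_001163216, -2.78 to 3.70 for NM_001163217, -3.64 to 0.62 for NM_010206, -1.07 to 0.34 for NM_001079909, -0.39 to 0.62 for NM_010207 and -0.62 to 0.39 for NM_201601. Those of the upstream Fgfr3 entries NM_001163215, NM_001205270 and NM_008010 each ranged from -0.20 to 0.15. These entries had at most 7.11e-05 FPKM, far below the pseudocount of 0.1, so their ratios followed the Fgfr3 sum. Their changes of direction, counted among the 24, carry no information on the entries themselves. The sums of Fgfr1 (0.09 to 0.27), Fgfr2 (-0.29 to -0.09) and Fgfrl1 (0.04 to 0.25) kept their direction throughout, and stood at 0.26, -0.11 and 0.22 with median ratio scaling. That scaling put the unadjusted limma p under 0.05 for Fgfr1 (0.011, interval 0.08 to 0.45), NM_001079908 (0.024) and NM_001164259 (0.048). The same held for 896 of 7343 genes and 1140 of 13738 entries. Intervals of Fgfr2, Fgfrl1 and the other receptor entries still included 0. With the highest entry per gene, Fgfr1 had an unadjusted limma p of 0.038.

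Counts over all genes moved more. limma called 7 genes, and 19 with a pseudocount of 1, 13 with 0.01, 0 with no filter (1776 at an unadjusted p under 0.05), 25 with entries of every length, 52 with null alleles as a linear term (without the 1.5-fold rule), 11 with median ratio scaling and 1 with the highest entry per gene; without 1 embryo the count ranged from 6 to 121, reaching 33 without the Foxf2+/+ and 121 without the Foxf2+/- embryo. It called 0 entries, but 23 with entries of every length and 11 without a variance trend, and 0 without any 1 embryo; for shares it called 0 throughout. The fold criterion gave 47 genes, 15 at 2-fold and 215 with a filter of 1 FPKM. The cause of these moves was not tested. Coverage times length in place of FPKM moved no mean share by as much as its SD over the embryos. No paired analysis was made, because the labels do not match any control to a particular Foxf2-/- embryo. Coverage was lowest for Fgfr3 and Fgfr4, at 1.66 or less.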
